A study of Mus musculus with 10 samples.

Results

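The change of the liver transcriptome between 48 and 72 h after an acetaminophen overdose was followed on 4 of the 10 arrays of the series, namely the 2 arrays titled 48 h and the 2 titled 72 h. The quantity compared was the log2 ratio of treated over control at 72 h minus that at 48 h, measured for 23997 genes. All mice were female C57BL/6 aged 8 weeks that had been fasted for 24 h before a single intraperitoneal injection. Treated mice received 350 mg/kg acetaminophen in phosphate buffered saline, and control mice received the saline alone, so that the fast and the injection were shared by both. Each array was hybridised with RNA of a control liver labelled with Cy3 and RNA of a treated liver labelled with Cy5. The dyes were never exchanged. A probe's dye effect drops out of the difference between the time points if it was equal on all arrays, but it stays in a ratio taken at 1 time point. The labels number the replicates 1 and 3 and number the mice as separate animals, and they give no time of day for injection or sampling. The replicate number matches that of the treated mouse in the title. The control mouse was numbered 2 on both arrays of replicate 1. In replicate 3 it was numbered 1 at 48 h and 3 at 72 h. Per the file headers, the 48 h and 72 h arrays of replicate 1 lay on one slide and those of replicate 3 on another.

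The 72 h array of replicate 1 stood apart. In its treated channel 44.6% of probes were well above background, against 61.8% to 75.9% on the other 3 arrays. It also carried 25 spots of the treated channel and 19 of the control channel whose local background was more than 3 times the array's median, and these were left out of the background model, which raised the SD of this array's ratios from 0.207 to 0.427 over the 14425 genes well above background in both channels of all 4 arrays. The ratios of both 48 h arrays correlated at 0.86 and those of both 72 h arrays at 0.24, computed over genes, which do not count as replicates. The 8 hepatocyte markers summed to a log2 intensity of 18.26 to 19.46 in every channel of the 4 arrays. The 4 pancreas markers summed to 8.15 to 8.46, and 1 marker each of fat and muscle passed the filter on dim probes.

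Acetaminophen is turned by cytochrome P450 enzymes of hepatocytes around the central veins into a reactive quinone imine, which depletes glutathione and kills these cells when the dose is high. Surviving hepatocytes switch on stress defence and protein synthesis while their metabolic and secretory genes fall, macrophages and neutrophils enter to clear dead cells, and the tissue is rebuilt by division of the remaining cells. In whole liver RNA, fewer cells of a type and less RNA per cell cannot be told apart.

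Between 48 and 72 h most of the genes whose ratio changed came back toward the control level. The difference passed the test for 5355 of 23997 genes (22.3%) at an adjusted p below 0.05 (limma over all 10 arrays, Benjamini-Hochberg). Of these, 2180 rose (9.08% of the genes tested), 1104 of them at least 2-fold, and 3175 fell (13.2%), 1609 of them at least 2-fold. All 5339 called genes measured on every one of the 4 arrays had both 72 h arrays on the same side of both 48 h arrays, a pattern that passing the test on these arrays largely fixes. Genes that rose had a median log2 ratio of -0.86 at 48 h and 0.14 at 72 h, and those that fell had one of 0.90 at 48 h and -0.11 at 72 h. In all, 5006 of the called genes were nearer to control at 72 h than at 48 h, 349 were farther from it, and 4980 lay within 1.5-fold of control at 72 h. With median centring in place of loess, 4670 of these called genes were nearer to control and 3917 lay within 1.5-fold of it at 72 h.

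**Figure D1:**
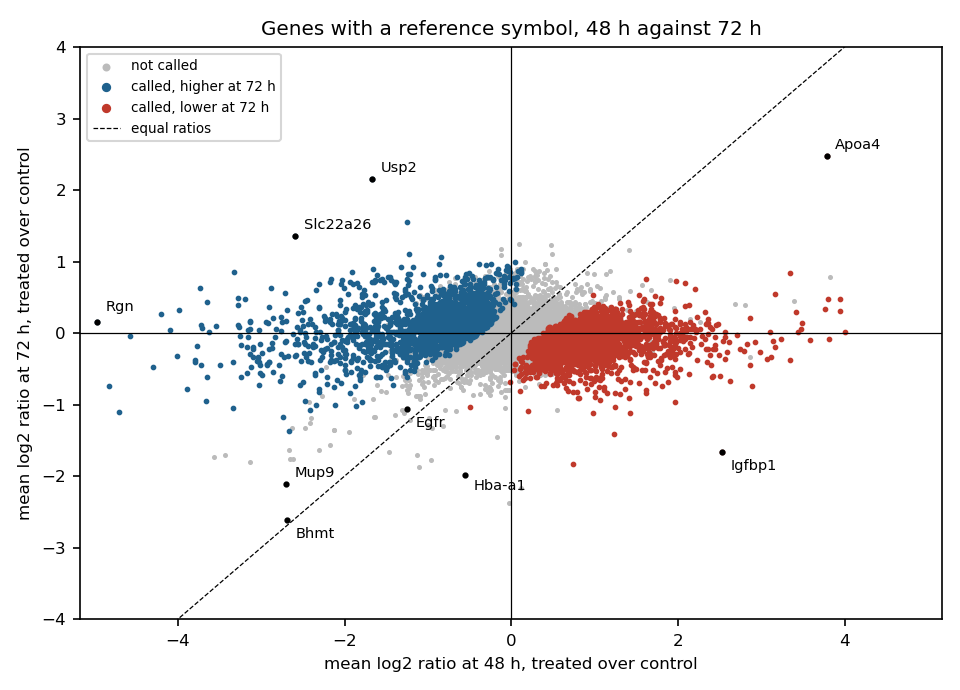
Mean log2 ratio of treated over control at 48 h (x axis) against that at 72 h (y axis) for genes with a reference symbol. Blue points rose and red points fell at an adjusted p below 0.05, grey points did not pass the test, and the dashed line marks equal ratios. Called genes lie close to 0 on the y axis, while Bhmt and Mup9 lie near the dashed line.

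Within the slide of replicate 1, 5341 of the 5341 called genes measured there moved in the called direction, and within the slide of replicate 3, 5353 of 5353 did. The genes had been called on these same arrays, so that this count and the slide medians describe the calls and are no check of them. The median difference of called rises was 1.08 and 0.94 on these slides, and that of called falls was -0.995 and -0.99. With slide as a fixed block 4861 genes passed, and with slide as a random block 6274 did. Genes that lay beyond 2-fold at 48 h on one slide were also read on the other slide, which had no part in choosing them. The 1242 genes above control and the 1084 below it on the slide of replicate 1 had medians of 1.38 and -1.46 at 48 h and of 0.0322 and -0.115 at 72 h on the slide of replicate 3, where 96.9% and 95.8% of them were nearer to control at 72 h than at 48 h. In the other direction, the 1807 genes above control and the 1179 below it on the slide of replicate 3 had medians of 1.00 and -1.28 at 48 h and of -0.132 and 0.0754 at 72 h on the slide of replicate 1, where 92.2% and 87.6% were nearer to control at 72 h. The count of calls rested in part on 2 arrays: it was 2737 without the 72 h array of replicate 1 and 3144 without the 48 h array of replicate 3. It rested most on the loess normalization within arrays. With median centring alone the median of all genes shifted by -0.145, and 279 genes passed, 12 higher and 267 lower, so that 4.30% of the calls were rises instead of 40.7%. Called members of any one gene list then numbered 0 to 4. For many named genes whose call ended when one of the 4 arrays was left out, this is said in the gene's own paragraph. It is not said for genes listed only as flagged or for their change of sign. Where nothing is said of a call, this does not mean that it held without each array.

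Cytochrome P450 genes, whose products oxidise drugs and steroids, had the largest median difference among the gene lists. Of 28 tested, 20 rose (71.4%) and 0 fell, against 9.08% and 13.2% of all genes. The share of rises was 71.4% in the conjugation list too and 75.0% in that of secreted plasma proteins. The list's median ratio was -2.07 and -1.77 on the 48 h arrays and 0.06 and -0.02 on the 72 h arrays. Its median difference was 1.98 against 0.02 over all genes, and 1.17 under median centring. The ratio of Cyp2c54 was -4.38 and -4.76 at 48 h and 0.09 and -0.17 at 72 h (difference 4.53 ± 0.21, SE of the fit, adjusted p = 0.00012). Cyp3a11, a main drug oxidase of the liver, was at -3.88 and -4.53 at 48 h and at -0.08 and 0.61 at 72 h (4.47 ± 0.30, adjusted p = 0.000314). For both genes the 48 h arrays lay far below the 72 h arrays. The lack of overlap was part of how they were chosen. Cyp2c70 (3.67 ± 0.49) and Cyp3a25 (3.26 ± 0.32) rose as well. Members of the Cyp2c and Cyp3a families are close in sequence, so probes may share signal. Cyp1a2 and Cyp2e1, which activate acetaminophen, are named here after their values were seen. Cyp1a2 went from -2.47 and -3.18 to -0.08 and -0.02 (2.78 ± 0.36, adjusted p = 0.00184). Cyp2e1 was at -2.75 on the 48 h array of replicate 1 and at 0.43 and -0.13 at 72 h (2.90 ± 0.33). Its spot on the other 48 h array carried an outlier flag and was left out, so its 48 h value rests on 1 array.

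Promoters of list members that moved together are shown for 3 lists, from RefSeq on GRCm38.p6, reaching from 250 bases before the transcription start to 50 after it. Cyp3a11 (chr5:145879805-145880104, minus strand) and Cyp2c70 (chr19:40187237-40187536, minus strand) are the called P450 genes of largest difference that hold CAAAGTCC, an element bound by HNF4-type receptors, which is in capitals. The pattern was searched on both strands together with 7 others, chosen after the shares of further patterns in these lists had been seen. It was held by 4 of 23 P450 genes with a promoter (17.4%) and by 440 of 27025 genes in all (1.63%). TATAAA was held by 15 of the 23 (65.2%) and by 4234 of all genes (15.7%). A match is a description of the letters, and binding was not measured.
Cyp3a11: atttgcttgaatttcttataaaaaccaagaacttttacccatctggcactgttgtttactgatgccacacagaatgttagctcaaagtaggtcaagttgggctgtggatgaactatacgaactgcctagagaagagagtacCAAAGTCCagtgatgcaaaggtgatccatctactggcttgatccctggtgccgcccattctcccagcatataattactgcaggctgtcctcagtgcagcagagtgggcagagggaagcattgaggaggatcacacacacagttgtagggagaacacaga
Cyp2c70: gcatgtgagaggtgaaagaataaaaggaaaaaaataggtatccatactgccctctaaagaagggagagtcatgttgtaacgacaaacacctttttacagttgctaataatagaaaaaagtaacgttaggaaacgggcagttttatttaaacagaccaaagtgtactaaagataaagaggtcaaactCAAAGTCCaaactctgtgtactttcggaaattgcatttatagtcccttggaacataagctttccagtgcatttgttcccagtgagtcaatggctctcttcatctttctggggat

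Pericentral hepatocyte genes include the P450 genes of the zone that the drug injures and the glutamine synthetase gene. Of 22 tested, 13 rose and 1 fell, with a median difference of 1.31 that became 0.92 under median centring. Rgn, which encodes the calcium-binding protein regucalcin (probe at chrX:20138932-20138991 on mm9), had the largest rise among genes named by the rule. Its ratio was -4.29 and -5.66 at 48 h and 0.52 and -0.19 at 72 h (5.14 ± 0.41, adjusted p = 0.000405). Glul, glutamine synthetase of the innermost cells, was at -3.30 and -4.73 and then at -0.07 and -0.57 (3.70 ± 0.51, adjusted p = 0.00221). Slc1a2, a glutamate transporter of the same cells, rose by 3.60 ± 0.42, and Tbx3, a transcription factor of the zone, by 3.52 ± 0.43. None of these 4 genes had overlapping arrays, which holds for all called genes measured on the 4 arrays and is no separate support. Cldn2, a tight junction gene, was the member that fell, from 1.78 and 1.82 to -0.25 and -0.45.

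The periportal list, of genes around the portal vein, had 9 rises and 4 falls among 23 tested, and its median difference of 0.53 became -0.54 under median centring. Cyp2f2 rose from -3.05 on both arrays to -0.48 and -0.30 (2.66 ± 0.20), and Ass1, argininosuccinate synthase of the urea cycle, from -2.34 and -2.84 to -0.33 and -0.32 (2.27 ± 0.23). Apoc2 fell by 2.22 ± 0.38 and Sdsl by 1.43 ± 0.25.

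**Figure D2:**
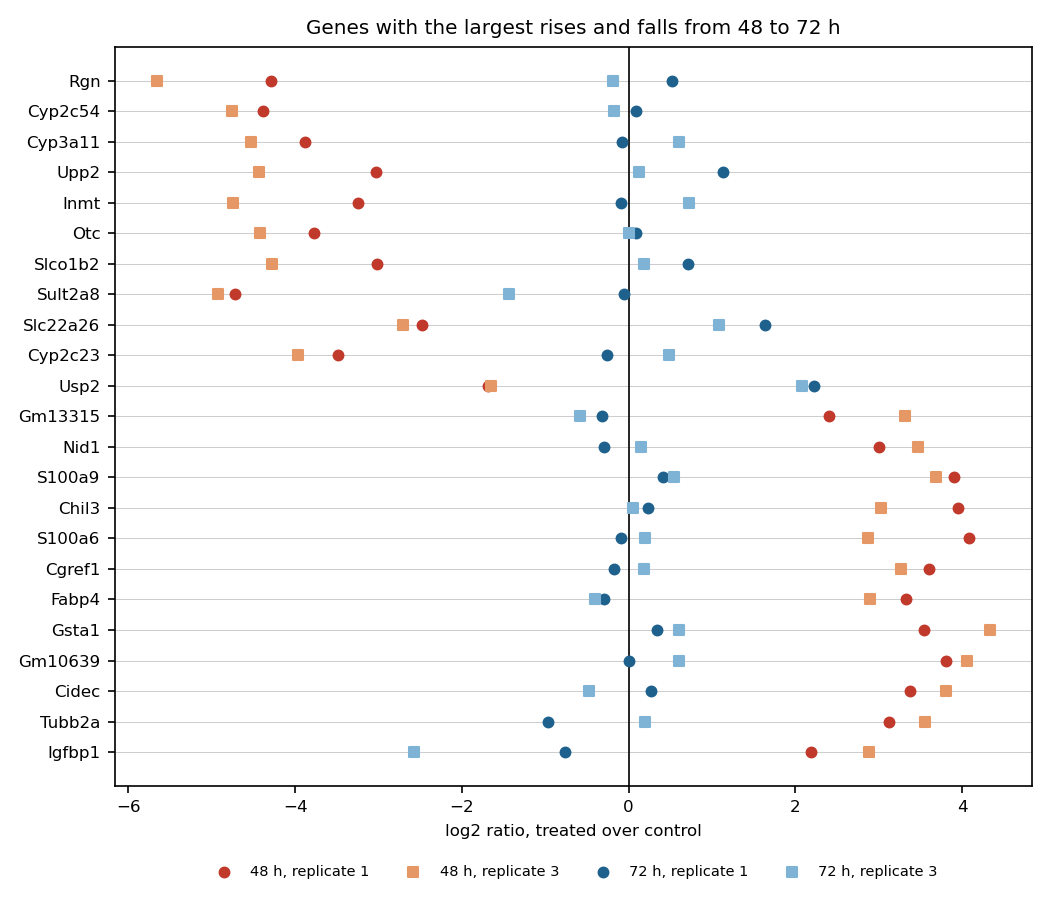
Log2 ratio of treated over control (x axis) on each of the 4 arrays for 11 of the 12 genes with the largest rises and the 12 with the largest falls of the difference. Red and orange marks are the 48 h arrays, blue marks the 72 h arrays, and circles and squares are replicates 1 and 3. In each gene both 72 h marks lie on one side of both 48 h marks, since that was part of how the genes were chosen.

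Most tested genes of conjugation, bile acid handling, amino acid breakdown and secretion also rose. In the conjugation list, 25 of 35 rose and 2 fell, with a median difference of 1.40 that became 0.53 under median centring. Sult2a8, a bile acid sulfotransferase, rose from -4.72 and -4.93 to -0.06 and -1.43 (4.08 ± 0.40, adjusted p = 0.000669), and Papss2, which makes the sulfate donor, rose by 3.19 ± 0.20. Ugt2a3 and Gstm1 rose by 2.86 ± 0.44 and 2.68 ± 0.30. The 2 members that fell were the glutathione transferase genes Gsta1 and Gstp1. The call of Gstp1 ended without the 72 h array of replicate 1 or either 48 h array (adjusted p = 0.0649 to 0.0746), and Gsta1 is described with the stress genes.

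Of 33 genes of bile acid synthesis and transport, 19 rose and 0 fell (median difference 0.89), and 9 to 11 rose when either 48 h array or the 72 h array of replicate 1 was left out. Slco1b2, an uptake transporter of the sinusoidal membrane, went from -3.02 and -4.28 to 0.71 and 0.18 (4.10 ± 0.38). Abcb11, the bile salt export pump, went from -3.12 and -3.44 to 0.52 and 0.46 (3.77 ± 0.24, adjusted p = 0.000306). Both transporters were above control on both 72 h arrays and below it on both 48 h arrays. Under median centring the list's median difference was 0.07, and Slco1b2 and Abcb11 were at -0.77 and -0.86 on the 72 h array of replicate 1. Slc27a5, which conjugates bile acids to coenzyme A, rose by 2.87 ± 0.29.

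Of 37 genes of amino acid catabolism and the urea cycle, 20 rose and 0 fell, with a median difference of 1.02 that became -0.13 under median centring. Otc, ornithine transcarbamylase, was at -3.77 and -4.42 at 48 h and at 0.09 and -0.00 at 72 h (4.13 ± 0.21, adjusted p = 0.000187). With loess this was a rise to the control level on both arrays, whereas under median centring Otc was at -1.21 and 0.12 at 72 h. Prodh, proline dehydrogenase, rose by 3.64 ± 0.32 and Hpd, of tyrosine breakdown, by 3.05 ± 0.31. With scaling between arrays 12 of the 37 rose.

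Of 44 genes of secreted plasma proteins, 33 rose and 2 fell, with a median difference of 1.40 that became 0.06 under median centring. Serpina6, which encodes the corticosteroid carrier of plasma, rose from -3.27 and -4.15 to 0.27 and -0.13 (3.78 ± 0.32), and the complement gene C8a from -2.30 and -3.53 to 0.17 and 0.12 (3.06 ± 0.33). Mbl2, mannose-binding lectin, rose by 2.51 ± 0.21 and Gc, the vitamin D carrier, by 2.44 ± 0.13. Under median centring Serpina6, C8a, Mbl2 and Gc were at -1.13, -1.09, -1.19 and -1.02 on the 72 h array of replicate 1. On the other 72 h array they were then at 0.08 to 0.59. The apolipoprotein genes Apom and Apoa4 fell, by 2.32 ± 0.40 and 1.30 ± 0.28. Alb was at 0.09 and -0.32 at 48 h and at 0.15 and 0.08 at 72 h, and did not pass the test.

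Acute phase genes were mixed, with 13 rises and 3 falls among 34 and a median difference of 0.45 that became -0.12 under median centring. The count of rises was 6 without the 48 h array of replicate 3 and also without the 72 h array of replicate 1. Saa4, a constitutive serum amyloid gene, rose by 2.40 ± 0.47. Saa2, a serum amyloid gene, was at -1.23 and -1.24 at 48 h and above control at 1.74 and 0.46 at 72 h (2.33 ± 0.56, adjusted p = 0.0203). Cd14, a receptor for bacterial lipopolysaccharide, and Serpina3m, a protease inhibitor, fell by 2.07 ± 0.48 and 2.64 ± 0.44. The call of Saa4 ended without the 48 h array of replicate 3 (adjusted p = 0.0588), that of Saa2 without this array, the other 48 h array or the 72 h array of replicate 1 (adjusted p = 0.0697 to 0.131), and that of Cd14 without the 48 h array of replicate 1 or either 72 h array (adjusted p = 0.055 to 0.085).

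Genes of growth hormone response and sex bias rose in 16 of 29 and fell in 1 (median difference 1.12). Cyp3a16, Cux2 and Cish rose by 2.93 ± 0.32, 2.42 ± 0.27 and 1.89 ± 0.22. Cux2, a female-biased repressor, passed from -1.59 and -1.64 to 0.62 and 1.00, and so from below control to above it. Among liver transcription factors, 11 of 30 rose and 3 fell, with a median difference of 0.33 that became -0.28 under median centring. Klf15, Nr1h5 and Nr5a2 rose by 1.35 to 1.89, and Zbtb16 and Foxa3 fell by 1.66 ± 0.33 and 1.49 ± 0.35. The call of Zbtb16 ended without the 72 h array of replicate 1 (adjusted p = 0.0557), and that of Foxa3 without either 72 h array or the 48 h array of replicate 3 (adjusted p = 0.0605 to 0.0944).

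Of 26 genes of fat synthesis, 11 rose and 1 fell, with a median difference of 0.56 that became -0.18 under median centring, and 6 rose without the 48 h array of replicate 3. Mlxipl, which encodes the glucose-sensing factor ChREBP, rose from -1.92 and -2.70 to 0.93 and 0.45 (3.00 ± 0.28), and Srebf1, the insulin-driven regulator, from -1.59 and -2.16 to 0.21 and 0.19 (2.08 ± 0.20). Both regulators were below control on both 48 h arrays and above it on both 72 h arrays. Under median centring Mlxipl and Srebf1 were at -0.5 and -0.64 on the 72 h array of replicate 1. Acss2, acetyl-CoA synthetase, rose by 2.45 ± 0.14. Thrsp rose by 2.15 ± 0.41 in the ratio, with 0.39 in the treated channel and -1.76 in the control channel, and its call in the ratio ended without the 72 h array of replicate 1 (adjusted p = 0.0553).

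Of 16 lipid droplet genes, 9 fell and 1 rose (median difference -1.27), and 5 fell without the 72 h array of replicate 1. Cidec, a droplet fusion protein, was at 3.38 and 3.81 at 48 h and at 0.27 and -0.47 at 72 h (-3.69 ± 0.60, adjusted p = 0.00427). Plin2, the main droplet coat protein, was at 2.24 and 2.76 and then at -0.23 and -0.96 (-3.10 ± 0.44). Hilpda and Plin4 fell by 2.74 ± 0.38 and 2.65 ± 0.53, Plin4 without a call when the 72 h array of replicate 1 was left out (adjusted p = 0.0657). Fabp4, a fatty acid carrier of fat cells and macrophages, fell from 3.33 and 2.90 to -0.29 and -0.40. None of these genes had overlapping arrays, which holds for all called genes measured on the 4 arrays and is no separate support. The fat marker Retn was at 0.18 at 48 h and 0.07 at 72 h.

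Of 42 genes of fatty acid oxidation, 10 fell and 5 rose (median difference -0.40), and its balance depended on single arrays. Without the 48 h array of replicate 3, 3 fell and 2 rose, without the 72 h array of replicate 3, 4 fell and 7 rose, and without the 72 h array of replicate 1, 7 fell and 1 rose. Pdk4, which blocks pyruvate entry into the citric acid cycle, fell from 1.71 and 3.20 to 0.20 and -0.66 (-2.68 ± 0.55), and Hadha by 1.55 ± 0.16. In cholesterol synthesis 6 of 27 rose and 1 fell, and the list's median remained below control at 72 h, at -0.71 and -0.43. Ebp and Tm7sf2 rose by 2.36 ± 0.23 and 1.59 ± 0.36, and Hsd17b7 fell by 1.71 ± 0.37. The rises numbered 3 without the 72 h array of replicate 1 and 2 with scaling between arrays, and the falls numbered 3 without the 48 h array of replicate 1. The calls of Pdk4, Tm7sf2 and Hsd17b7 ended without the 48 h array of replicate 3 (adjusted p = 0.0591, 0.0871 and 0.0575). Those of Tm7sf2 and Hsd17b7 also ended without the 72 h array of replicate 1 (adjusted p = 0.0637 and 0.07), and that of Tm7sf2 without the other 72 h array (adjusted p = 0.0557).

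Glucose handling moved in both directions. Of 27 genes of glycolysis and hypoxia, 13 fell and 1 rose (median difference -0.69), and 6 fell without the 72 h array of replicate 1. Pgk1, phosphoglycerate kinase, went from 2.19 and 2.94 to -0.36 and -0.35 (-2.92 ± 0.28), and Ldha, lactate dehydrogenase, from 2.40 and 2.77 to -0.13 and -0.39 (-2.85 ± 0.23). Pkm, the pyruvate kinase form of growing cells, fell by 2.41 ± 0.59, a call that ended without the 48 h array of replicate 3 or either 72 h array (adjusted p = 0.0547 to 0.12), and Vegfa, the blood vessel growth factor, rose by 1.54 ± 0.14. In gluconeogenesis and glycogen 8 of 21 rose and 3 fell, with a median difference of 0.46 that became -0.39 under median centring. Gys2, glycogen synthase of the liver, rose from -1.95 and -2.26 to -0.01 and -0.05 (2.08 ± 0.29). Igfbp1, an insulin-repressed carrier of insulin-like growth factors in plasma (probe at chr11:7102442-7102501 on mm9), had the largest fall among genes named by the rule and went from 2.19 and 2.88 to -0.76 and -2.57 (-4.20 ± 0.67, adjusted p = 0.00377).

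Genes of protein synthesis and breakdown fell together. Of 31 proteasome genes, 23 fell and 0 rose, against 13.2% of all genes that fell. The list's median was 0.42 and 0.90 on the 48 h arrays and -0.35 and -0.37 on the 72 h arrays, with a median difference of -0.93. Both 72 h arrays lay above both 48 h arrays in 0 of the 31, against 7247 of all 23997 genes. They lay below both in 27 of the 31, against 7082 of all genes. Psmd13, of the proteasome lid, went from 1.72 and 2.15 to -0.43 and -0.52 (-2.41 ± 0.16, adjusted p = 0.000314), and Psmd8 from 1.34 and 2.00 to -0.75 and -0.49 (-2.29 ± 0.22). Both passed from above control to below it. Psmb4 and Psmd6 fell by 1.85 ± 0.24 and 1.71 ± 0.29. The count was 14 without the 72 h array of replicate 1, with the scanner software's ratios, with a normexp offset of 0 and with the 4 arrays fitted alone.

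Psmd13 (chr7:140882144-140882443, plus strand) and Psmd6 (chr14:14120896-14121195, minus strand) are the called proteasome genes of largest fall whose promoter holds CCGGAAG, an element bound by ETS factors, in capitals. The pattern was held on either strand by 10 of 25 proteasome genes with a promoter (40.0%), by 8 of 29 genes of ribosomal proteins (27.6%) and by 2683 of all genes (9.93%).
Psmd13: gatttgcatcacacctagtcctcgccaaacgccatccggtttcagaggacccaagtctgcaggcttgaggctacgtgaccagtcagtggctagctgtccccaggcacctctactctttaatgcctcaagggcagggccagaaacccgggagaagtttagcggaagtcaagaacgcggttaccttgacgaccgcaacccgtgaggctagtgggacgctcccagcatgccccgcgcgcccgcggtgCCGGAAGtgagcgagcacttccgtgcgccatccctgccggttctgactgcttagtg
Psmd6: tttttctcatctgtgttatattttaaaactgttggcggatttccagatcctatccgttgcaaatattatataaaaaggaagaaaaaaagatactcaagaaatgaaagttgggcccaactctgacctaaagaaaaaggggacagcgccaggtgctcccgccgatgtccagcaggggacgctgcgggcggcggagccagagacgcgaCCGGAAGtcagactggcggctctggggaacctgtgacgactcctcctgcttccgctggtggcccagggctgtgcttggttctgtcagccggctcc

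Of 41 ribosome biogenesis genes, 25 fell and 1 rose (median difference -0.74). Ddx21, a helicase of the nucleolus, fell from 1.52 and 1.83 to -0.24 and 0.24 (-1.68 ± 0.27), and Nhp2 and Gar1, of RNA pseudouridylation, fell by 1.64 ± 0.27 and 1.41 ± 0.19. Of 39 genes of cytosolic ribosomal proteins, 22 fell and 0 rose (median difference -0.72). Rps19 was at 1.69 and 2.26 and then at -0.75 and 0.17 (-2.27 ± 0.30), and Rpl13 at 1.65 and 2.11 and then at 0.09 and 0.12 (-1.77 ± 0.22). Ribosomal protein genes have many processed copies, which a probe may not tell apart. Without the 72 h array of replicate 1 the falls of these lists numbered 14 and 13, and without the 48 h array of replicate 3 they numbered 14 and 11. Among splicing regulators 9 of 29 fell and 1 rose, led by Hnrnpa1 (-2.64 ± 0.25).

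Of 30 cytoskeleton genes, 14 fell and 0 rose (median difference -0.97), and 7 fell without the 72 h array of replicate 1. Tubb2a, a beta tubulin, went from 3.12 and 3.56 to -0.97 and 0.20 (-3.73 ± 0.52), and Tubb6 and Tuba1c fell by 2.98 ± 0.42 and 2.62 ± 0.22. Krt8, the keratin of hepatocytes, fell from 2.32 and 1.73 to -1.29 and 0.29 (-2.52 ± 0.66), and its call ended without the 72 h array of replicate 1 (-1.74, adjusted p = 0.167) or either 48 h array (adjusted p = 0.0702 and 0.113). Of 40 chaperone genes, 15 fell and 1 rose (median difference -0.53), and 6 to 9 fell without the 72 h array of replicate 1 or either 48 h array. Dnajb9, of the endoplasmic reticulum, Cct3, of the tubulin chaperonin, and Hsp90aa1 fell by 1.98 ± 0.26, 1.92 ± 0.23 and 1.54 ± 0.35. The call of Hsp90aa1 ended without either array of replicate 1 (adjusted p = 0.0867 and 0.108).

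Of 29 targets of NRF2, the regulator of the antioxidant response, 14 fell and 2 rose (median difference -0.75), and 9 fell without the 48 h array of replicate 3 or the 72 h array of replicate 1. Fth1, ferritin heavy chain, went from 2.82 and 2.30 to 0.10 and -0.09 (-2.55 ± 0.36), and G6pdx, which supplies NADPH, from 2.01 and 2.45 to -0.02 and 0.46 (-2.01 ± 0.30). Prdx1 and Srxn1, which remove and repair peroxides, fell by 2.01 ± 0.22 and 1.77 ± 0.45. Catalase, Cat, rose by 1.39 ± 0.23 and the exporter Abcc2 by 1.13 ± 0.26. Gsta1, a glutathione transferase induced by electrophiles, went from 3.55 and 4.34 to 0.34 and 0.61 (-3.47 ± 0.88, adjusted p = 0.0243), and its near-identical relative Gm10639, whose probe may share its signal, fell by 3.63 ± 0.80. The call of Gsta1 ended without any one of the 4 arrays (adjusted p = 0.0531 to 0.124). Those of Gm10639 and Srxn1 ended without the 48 h array of replicate 3 (adjusted p = 0.0704 and 0.148) or the 72 h array of replicate 1 (adjusted p = 0.0852 and 0.155), and that of Abcc2 without these or the other 48 h array (adjusted p = 0.0584 to 0.0846).

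Among 19 p53 targets 8 fell and 1 rose, and 4 fell without the 72 h array of replicate 1 and 5 without the 48 h array of replicate 3. Aen, Phlda3 and Ei24 fell by 1.68 ± 0.21, 1.01 ± 0.21 and 0.95 ± 0.15, Phlda3 without a call when the 48 h array of replicate 1 was left out (adjusted p = 0.0503). Cdkn1a, the cell cycle inhibitor p21, is not among the 19 genes counted here. It was dim in some channels and is named after its values were seen. Its ratio was 2.77 and 3.36 at 48 h and -0.38 and -0.33 at 72 h (-3.42 ± 0.40, adjusted p = 0.00122).

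**Figure D3:**
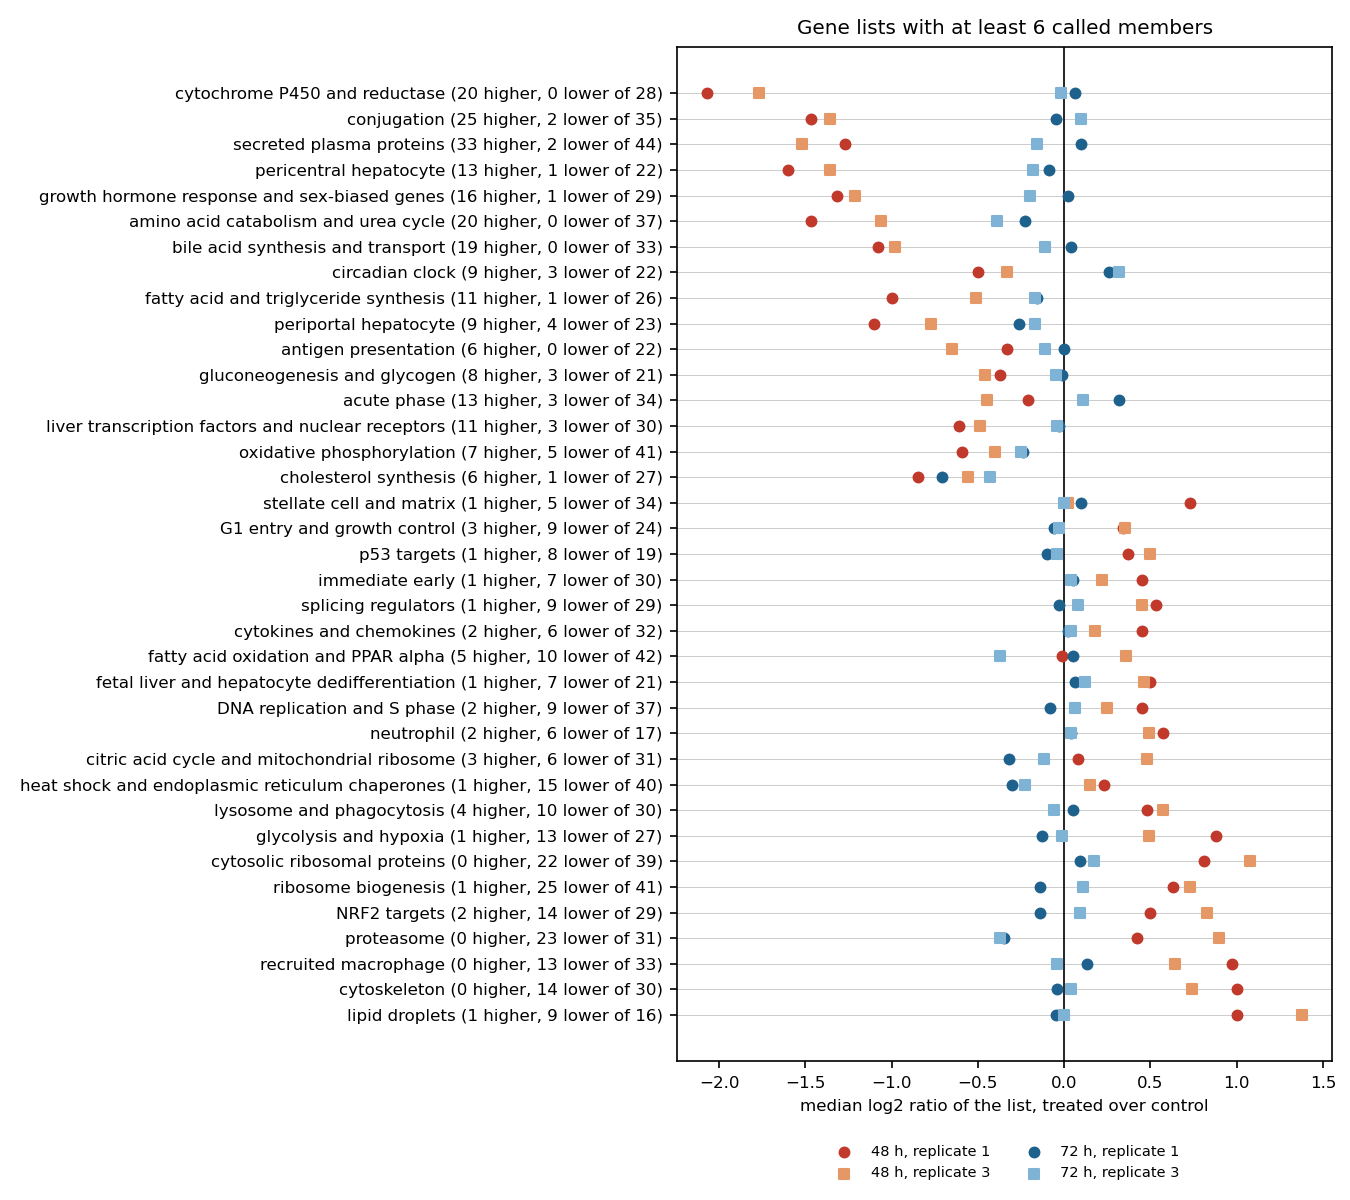
Median log2 ratio of treated over control (x axis) on each of the 4 arrays for the gene lists with at least 6 called members, ordered by the median difference. Red and orange marks are the 48 h arrays and blue marks the 72 h arrays. The medians of the P450 list lie at -2.07 and -1.77 at 48 h and at 0.06 and -0.02 at 72 h, and those of the proteasome list pass from 0.42 and 0.90 to -0.35 and -0.37.

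Among cell cycle genes, 37 were of DNA replication and S phase, of which 9 fell and 2 rose (median difference -0.41), and 4 fell without the 72 h array of replicate 1. Fen1, a flap endonuclease, went from 1.06 and 1.10 to -0.55 and 0.07 (-1.32 ± 0.21), and Mcm3, of the replicative helicase, from 1.48 and 1.01 to -0.15 and 0.04 (-1.30 ± 0.35), a call that ended without any one of the 4 arrays (adjusted p = 0.0596 to 0.144). Tk1, thymidine kinase, moved the other way, from -1.22 and -1.78 to 0.37 and 0.54 (1.96 ± 0.20). Of 26 genes of G2 and mitosis, 2 fell, Spc25 and Incenp, and 0 rose, and the list's median difference was -0.01. The fall of Incenp was not called without the 72 h array of replicate 1 or either 48 h array (adjusted p = 0.0552 to 0.0888). Of 24 genes of G1 entry and growth control, 9 fell (37.5%) and 3 rose. Ccnd1, cyclin D1, fell from 1.00 and 1.56 to -0.86 and -0.42 (-1.92 ± 0.21), and the inhibitor Cdkn1b rose by 1.10 ± 0.14. The inhibitor Cdkn1a, described above, fell (-3.42), as did Gadd45g (-2.29) and Btg1 (-0.88). The call of Gadd45g ended without the 48 h array of replicate 3, and that of Btg1 without any one of the 4 arrays.

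Of 33 genes of recruited macrophages, which enter the injured liver from blood, 13 fell, against 13.2% of all genes, and 0 rose (median difference -0.93), though 4 to 7 fell when any one of the 4 arrays was left out, and 6 with the scanner software's ratios. The summed log2 intensity of the 5 tested macrophage markers was 13.56 and 12.23 in treated livers at 48 h, 10.04 and 9.53 in treated livers at 72 h, and 9.43 to 10.81 in control livers. Of these markers Chil3 and Gpnmb were called as falls, and Ccr2, Trem2 and Lgals3 were not called. Chil3, a chitinase-like protein of such cells, went from 3.95 and 3.03 to 0.23 and 0.05 (-3.35 ± 0.68, adjusted p = 0.0103). Fabp5 and Tyrobp fell by 2.42 ± 0.37 and 1.66 ± 0.47. The call of Chil3 ended without either array of replicate 1 (adjusted p = 0.0548 and 0.051), and that of Tyrobp without any one of the 4 arrays (adjusted p = 0.0815 to 0.138).

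The neutrophil list had 6 falls and 2 rises among 17, and 3 falls when the 72 h array of replicate 1 or either 48 h array was left out. S100a9, of the calcium-binding pair calprotectin, went from 3.91 and 3.69 to 0.41 and 0.55 (-3.32 ± 0.75, adjusted p = 0.0157). Its partner S100a8, one of the neutrophil markers, fell by 3.43 ± 0.70. Both calls ended without the 48 h array of replicate 3 (adjusted p = 0.0629 for S100a9 and 0.051 for S100a8) or the 72 h array of replicate 1 (adjusted p = 0.0811 and 0.0566), and that of S100a9 also without the other 48 h array (adjusted p = 0.0626). The 5 tested neutrophil markers summed to 12.80 and 12.49 in treated livers at 48 h, to 10.44 and 10.06 at 72 h, and to 9.98 to 10.39 in control livers. Camp and Elane were at -0.04 and -0.32 at 48 h and at 0.01 and 0.27 at 72 h, and neither passed the test. The rises of the neutrophil list were Itgam (1.19) and Csf3r (0.95), whose calls ended without the 48 h array of replicate 3 or the 72 h array of replicate 1. Among cytokines 6 of 32 fell and 2 rose, with Ccl6 (-3.25 ± 0.85) and Cxcl1 (-1.58 ± 0.40) among the falls. None of the falls passed with the scanner software's ratios or without the 72 h array of replicate 1, 1 passed without the 48 h array of replicate 1, and 3 passed without the 72 h array of replicate 3. The call of Ccl6 ended without any one of the 4 arrays (adjusted p = 0.0744 to 0.114), and that of Cxcl1 without the 48 h array of replicate 1 or either 72 h array (adjusted p = 0.0567 to 0.117). Of 22 genes of resident Kupffer cells 3 fell (13.6%, near the 13.2% of all genes) and 1 rose, and 1 fell without either 48 h array or without the 72 h array of replicate 3. Of 30 lysosome genes 10 fell and 4 rose, and 6 fell without the 72 h array of replicate 1. Psap, the saposin precursor, fell by 2.12 ± 0.12. The 5 resident Kupffer cell markers summed to 14.0 and 13.5 in treated livers at 48 h and to 12.96 and 12.15 at 72 h. In control livers they summed to 11.6 to 12.5, and 0 of the 5 were called.

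Of 22 circadian clock genes and outputs, 9 rose in the ratio and 3 fell, and the others were not called (median difference 0.56). The falls numbered 0 without the 48 h array of replicate 3 or the 72 h array of replicate 1, and 1 without the other 72 h array. Usp2, a deubiquitinase driven by the clock (probe at chr9:43903649-43903708 on mm9), was at -1.69 and -1.65 at 48 h and at 2.22 and 2.08 at 72 h (3.82 ± 0.36, adjusted p = 0.000596), well below control on both early arrays and above it on both late ones. Its change was 2.45 in the treated channel and -1.37 in the control channel. Dbp, an output transcription factor, rose by 3.67 ± 0.54 in the ratio, by 1.70 in the treated channel (adjusted p = 0.0518) and with -1.97 in the control channel. Tef and Nr1d2 rose by 2.27 ± 0.32 and 1.63 ± 0.28, while Arntl and Clock, of the positive arm, fell by 1.38 ± 0.29 and 0.97 ± 0.29. The calls of both ended without the 48 h array of replicate 3 (adjusted p = 0.0675 and 0.247) or the 72 h array of replicate 1 (adjusted p = 0.0794 and 0.217), and that of Clock also without the other 72 h array (adjusted p = 0.0665). Sampling hour was not given in the labels, and its part in these values was not tested.

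Tef (chr15:81802423-81802722, plus strand) is the called clock gene of largest difference with CACGTG, the E-box bound by CLOCK and ARNTL, in a promoter of the RefSeq table. This pattern, the same on both strands, was held by 6 of 18 clock genes (33.3%) and by 2187 of all genes (8.09%). In the promoters printed here, the patterns in capitals overlapped 0 matches of the other patterns.
Tef: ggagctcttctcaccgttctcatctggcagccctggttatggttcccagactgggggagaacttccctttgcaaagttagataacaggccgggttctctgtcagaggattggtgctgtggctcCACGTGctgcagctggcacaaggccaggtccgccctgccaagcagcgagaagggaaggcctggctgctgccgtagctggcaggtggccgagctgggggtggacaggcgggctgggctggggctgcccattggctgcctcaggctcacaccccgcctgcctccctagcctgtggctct

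The channels were also compared one at a time. In control livers 0 of 23997 genes (0%) passed for 72 h minus 48 h in limma, with 1085 at an unadjusted p below 0.05, and 0 also passed with quantile normalization of the channels, with no scaling and with the replicate block. Without the 48 h array of replicate 3, 77 passed. In treated livers 3535 (14.7%) passed, 1243 higher (5.18%) and 2292 lower (9.55%), and 3091 genes were called with the same sign in the treated channel and in the ratio. With no scaling of average intensities the medians of all genes shifted to -0.154 in the treated and -0.212 in the control channel, and 256 genes passed in the treated channel, 20.3% of them higher instead of 35.2%. Without the 72 h array of replicate 1, 1918 passed, and without the 48 h array of replicate 1, 2102 did.

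Some genes had large negative values in both channels. Lcn2, lipocalin of the acute phase, changed by -5.13 in treated and -3.97 in control livers, so that its ratio was 1.95 and 1.87 at 48 h and 1.13 and 0.35 at 72 h (-1.16 ± 0.38, adjusted p = 0.0601). Gsta1 changed by -6.54 in treated and -3.07 in control livers, Cidec by -6.33 and -2.64, and Ly6d, a surface protein, by -5.73 and -2.79. None of the control values passed the test. In these genes the change of the ratio was smaller than that of the treated channel.

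**Figure D4:**
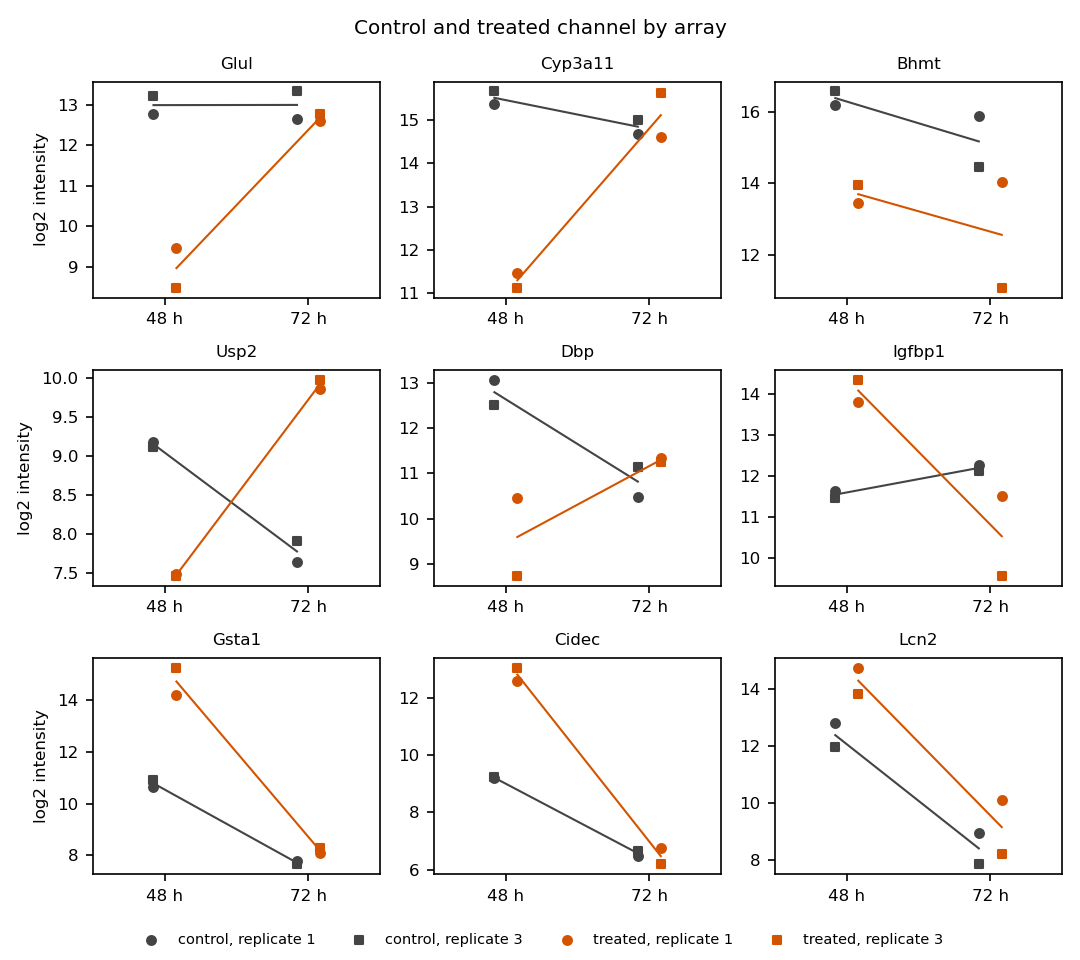
Log2 intensity (y axis) of the control channel (grey) and the treated channel (orange) at 48 and 72 h for 9 genes. Circles and squares are the arrays of replicates 1 and 3, and lines join the means of each channel. Glul rose in treated livers with a control change of 0.01, whereas Gsta1, Cidec and Lcn2 were lower at 72 h on every array of both channels and Bhmt was below control at both times.

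Dim probes allow only bounds. Uts2, which encodes the vasoactive peptide urotensin 2, was at least 27.38-fold higher in treated livers at 48 h than at 72 h, where it was not well above background. Psat1, of serine synthesis, was at least 14.86-fold higher at 48 h, Dppa3 at least 4.27-fold and the metalloproteinase gene Mmp3 at least 3.85-fold. In the other direction, Sp5, C730036E19Rik, Hsd3b6 and Atp6v0d2 were at least 2.68-fold, 2.28-fold, 2.01-fold and 1.71-fold higher in treated livers at 72 h. The change of Atp6v0d2 in the treated channel did not pass the test (0.77, adjusted p = 0.161), and its level of 6.33 on the 72 h array of replicate 3 was close to the 6.29 of the 48 h array of replicate 1. Its call in the ratio ended without either 48 h array or the 72 h array of replicate 1 (adjusted p = 0.0621 to 0.108). These bounds rest on channel levels after scaling of average intensities.

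Genes that had changed by 24 h were chosen on the 24 h arrays. These have no part in the size of the difference, but they enter the spread that the fit estimates for each gene, so the calls below are not independent of the choice and are given as a description. Of 1841 genes above control at 24 h (7.67%), 876 fell between 48 and 72 h and 43 rose, where 13.2% of all genes fell and 9.08% rose, with median ratios of 0.62 at 48 h and 0.03 at 72 h. Of 2895 below control at 24 h (12.1%), 1039 rose and 266 fell, with medians of -0.47 and -0.11. In all, 1915 of 4736 genes (40.4%) were called in the direction opposite to their 24 h change, and fewer were without the 72 h array of replicate 1. Distance from control was not part of this count. Among the strongest early falls, Akr1c6, a steroid reductase, was at -4.29 at 24 h, -3.48 and -5.12 at 48 h, and -0.13 and -0.84 at 72 h. Lor, loricrin of cornified epithelium, was at 3.74 at 24 h, 1.74 and 2.83 at 48 h, and -0.21 and -0.10 at 72 h.

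Few genes remained away from control at 72 h. Tested against 0, 7984 genes passed at 48 h (33.3%) and 4 at 72 h (0.0167%), a count that was 8 with a normexp offset of 0, 1 with the scanner software's ratios and 0 with median centring. Beyond 2-fold with one sign on both arrays lay 1704 genes at 48 h and 46 at 72 h, 10 above control and 36 below it. The software's ratios put 45 above and 106 below. The 4 genes that passed at 72 h were Apoa4, Egfr, Mtfr2 and Rhbg. Apoa4, an apolipoprotein of chylomicrons and of fatty liver, was at 3.61 and 3.96 at 48 h and still at 2.43 and 2.53 at 72 h. Its difference of -1.30 ± 0.28 passed, but not without the 48 h array of replicate 3 (adjusted p = 0.0756) or the 72 h array of replicate 1 (adjusted p = 0.0698). Egfr, the epidermal growth factor receptor, was at -1.18 and -1.33 at 48 h and at -1.05 and -1.07 at 72 h. Rhbg, an ammonium transporter of pericentral cells, rose from -1.79 and -1.94 to -0.97 and -1.06, and Mtfr2 from 0.09 and -0.00 to 0.98 and 0.99. In these ratios, taken at 1 time point, dye and treatment cannot be told apart.

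Farthest above control on both 72 h arrays were Apoa4, Usp2, Angptl8, Slc22a26, Per1 and Slc6a6. Under median centring Apoa4, Usp2, Slc22a26 and Per1 were at 1.61, 1.37, 0.55 and 0.29 on the 72 h array of replicate 1. Angptl8 and Slc6a6 were then at -0.09 and -0.15 on that array. Angptl8, an insulin-induced regulator of triglyceride clearance, went from -1.35 and -1.16 to 1.21 and 1.89 (2.80 ± 0.34), and Slc22a26, an organic anion transporter, from -2.48 and -2.70 to 1.64 and 1.08 (3.95 ± 0.31). Per1, of the clock, was at 1.41 and 1.05 at 72 h and did not pass the test of the difference. Farthest below were Bhmt, Mup9, Serpina4-ps1, Hba-a1, Mup18 and Serpina3k. Bhmt, betaine homocysteine methyltransferase, was at -2.75 and -2.64 at 48 h and at -1.86 and -3.39 at 72 h (0.07 ± 0.46, adjusted p = 0.94), with overlapping arrays. Mup9, a major urinary protein, was at -2.80 and -2.61 and then at -2.09 and -2.14 (0.59 ± 0.68). The Mup and Serpina3 families hold near-identical genes, and their probes may share signal.

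Hba-a1, alpha globin, was at -0.47 and -0.62 at 48 h and at -1.76 and -2.23 at 72 h, and the difference did not pass the test (-1.45 ± 1.07, adjusted p = 0.388). The 2 tested red cell markers summed to 12.18 and 12.41 in treated and to 13.84 and 14.60 in control livers at 72 h. The part of blood left in the tissue was not tested.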

How the data were processed

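Liver RNA of control (Cy3) and treated (Cy5) mice was measured on 10 Agilent 2-colour arrays, 2 per time point. Agilent Feature Extraction 10.7.3.1 made the files, per the file headers, and the deposited files hold mean and background intensity per spot and a log10 ratio. The authors' deposited value table holds a score on an unstated scale that is proportional to that ratio.

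Intensities were corrected by normexp (offset 50) and ratios normalized by loess in limma 3.58.1 (R 4.3.3), with no scaling between arrays. Spots whose local background exceeded 3 times the array's median in a channel were kept out of the normexp fit and dropped, 51 for this reason alone. This rule was chosen after seeing the data, because on the 72 h array of replicate 1 such spots moved the fitted control background from 4.32 to -1290. Outlier-flagged spots (2718) were dropped too. Of 39429 probes, 29607 were kept (well above background in one channel on both arrays of a time point). The brightest probe stood for each of 23997 genes, 17617 with a RefSeq symbol (26581 probes named by accession, 2597 by current and 492 by older symbol, 9759 by the file's name). Positions of probes were taken from the files, on mm9. Whether probes lie in an exon or UTR was not analysed here.

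Genes were tested with lmFit and eBayes over all 10 arrays, in a model of the 5 time points that left 5 residual degrees of freedom, two-sided, with Benjamini-Hochberg adjustment at 0.05. Channels were tested likewise after Aquantile scaling. The number of arrays limits the precision. The script was tested on simulated data. Genes were named by rule: the 12 largest rises and falls called and well above background, the 4 largest each way with bounds, up to 4 members of each list with the list's direction and 2 against it, the 6 farthest from control at 72 h each way, and the largest moves of the treated channel and of 24 h. Cell type markers and genes marked as exceptions fall outside it, and some genes that it names are not reported here. The members and lists were chosen with earlier results of these data known. Deviations of same-numbered arrays correlated at 0.324 between 48 and 72 h, and at -0.074 to 0.243 between the other time points, so the numbers were not taken as pairs.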

Additional observations from a re-analysis of the deposited data

Results flagged for a closer look

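In 26 of the genes reported here both 48 h arrays lay on one side of control and both 72 h arrays on the other, each at least 1.5-fold away, with the difference called by limma (Benjamini-Hochberg) and the probe well above background. The values below are differences of the log2 ratio, 72 h minus 48 h. A direction that crosses control at a single probe keeps any dye effect in it.

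From above control to below it passed 14 genes. Igfbp1 changed most, by -4.20. S100a10, the annexin A2 partner, changed by -2.92, and Fabp2, a fatty acid carrier of the gut, by -2.55. Among genes of lipids and secretion, Apom was at -2.32, Tmem120a at -2.16, Pnpla7, a phospholipase, at -2.07, the phosphatidylcholine carrier Pctp at -1.59 and Gpd1, glycerol-3-phosphate dehydrogenase, at -1.48. Serpina3h, one of a family of near-identical genes, was at -2.13. Ndrg1, a stress gene of hypoxia, was at -2.10, as was Mrps12 of the mitochondrial ribosome. Dnajb9 was at -1.98, the initiation factor gene Eif1a at -1.84 and the autophagy gene Trp53inp2 at -1.80.

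From below control to above it passed 12 genes. The transporter genes Slc22a26 and Slc22a27 changed by 3.95 and 2.55, and Slco1a4, another organic anion transporter, by 2.24. Usp2 changed by 3.82, Angptl8 by 2.80 and Cux2 by 2.42. Under median centring Usp2, Slc22a26 and Cux2 were at 1.37, 0.55 and 0.23 on the 72 h array of replicate 1. Slco1a4 and Angptl8 were then at 0.04 and -0.09 on that array. The lipoprotein receptor gene Lsr changed by 2.59, Paxx of DNA end joining by 2.37, the kinesin gene Kifc2 by 2.36 and folliculin, Flcn, by 2.10. Gne, of sialic acid synthesis, changed by 1.92. The mitochondrially encoded ND1 changed by 1.91, from -0.69 and -0.99 at 48 h to 1.20 and 0.95 at 72 h.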

How the results depend on the processing

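The number of genes called for the difference was 279 with median centring in place of loess, 3167 with the 4 arrays fitted alone, and 2737 to 5736 when an array was left out; the other alternatives gave 3845 (scaled between arrays) to 6274 (slide as a random block). Of the 5355 calls, 4789 kept their sign under median centring, and 3491 were also called with the software's ratios and with the authors' table. With the replicate block 5825 were called and 5003 of the 5355 kept. Same-numbered arrays share a slide at 48 and 72 h and at some other time points, but not across all of them. The treated channel gave 256 with no scaling of average intensities, 2249 with offset 0, 1227 with the 4 arrays alone and 1918 to 3017 when an array was left out. The control channel gave 0 to 77 when an array was left out and 0 otherwise. Of genes changed at 24 h, 1915 of 4736 (40.4%) were called in the direction opposite to their 24 h change. Other settings also changed how many genes were chosen: 62 of 852 (7.28%) with median centring, 1194 of 2613 (45.7%) with normexp fitted on all spots (an alternative chosen after seeing the data), 916 of 1594 (57.5%) when a 2-fold change at 24 h was required, and 1274 to 1758 (26.4% to 36.1%) when an array was left out. The 15 named genes that changed sign did so with median centring alone: Bbc3 at -0.02, Tfr2 -0.81, Ndufa9 -0.03, Atp5j -0.20, Uqcrb -0.35, Mdh1 -0.19, Cideb -0.20, Csf3r -0.40, Ctsa -0.24, Iigp1 -0.03, Stat2 -0.10, Psmb10 -0.17, Herpud1 -0.52, Utp6 -0.24 and Srsf5 -0.24. Of 231 called named genes, 27 kept call and direction in all 18 settings, and 145 in all but scaling between arrays and median centring. The cause of these shifts was not tested. Signal over background limits dim probes to bounds, most of all on the 72 h array of replicate 1.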

Other observations

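Gene lists not described above moved in few members, and the values are given as measured. Of all genes 9.08% rose and 13.2% fell. Shares near or below these were the 8.11% of rises and 5.41% of falls among interferon response genes. So were the 12.2% of falls in oxidative phosphorylation and the 9.68% of rises in the list of the citric acid cycle and mitochondrial ribosome. In oxidative phosphorylation 7 of 41 rose and 5 fell, and 4 rose without the 72 h array of replicate 1, with a median difference of 0.27 that became -0.86 under median centring. Sdhb, of complex II, rose by 1.43 ± 0.21, while Cox5a, of complex IV, fell by 1.34 ± 0.27, a call that ended without the 48 h array of replicate 3 (adjusted p = 0.0571). Among genes of the citric acid cycle and the mitochondrial ribosome 6 of 31 fell and 3 rose, with Mrps18a at -1.81 ± 0.22 and Mrpl12 at -1.65 ± 0.28, and 10 fell without the 48 h array of replicate 1. Genes of antigen presentation rose in 6 of 22 and fell in 0, with a median difference of 0.49 that became -0.33 under median centring. B2m and H2-K1, of MHC class I, rose by 2.24 ± 0.28 and 1.59 ± 0.26, and 2 of the 22 rose without either 72 h array and 3 without the 48 h array of replicate 3. Of 37 interferon response genes 3 rose and 2 fell, with Irf1 at 1.24 ± 0.18 and Oasl1 at -2.70 ± 0.44, and 1 rose without the 48 h array of replicate 3. Hepcidin 2, Hamp2, rose by 2.98 ± 0.30, one of 3 rises and 1 fall among 16 genes of metal handling. That list had 3 rises and 4 falls without the 48 h array of replicate 1 and 1 of each without the 48 h array of replicate 3 or the 72 h array of replicate 1. Its median difference of 0.01 became -0.80 under median centring, and -0.05 and -0.04 without the 48 h or the 72 h array of replicate 3.

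Among non-parenchymal lists, 5 of 28 endothelial genes fell and 0 rose, and fewer fell without the 72 h array of replicate 1. Lyve1 fell most (-1.95), and Cdh5 (-1.68 ± 0.25) and Gpr182 (-1.60 ± 0.27) fell too. The endothelial markers Kdr and Clec4g were at 1.19 and 0.51 and were not called. Of 34 stellate cell and matrix genes 5 fell (14.7%, near the 13.2% of all genes) and 1 rose, with Col4a1 at -2.41 ± 0.45 and Col14a1 at 1.34 ± 0.32. Without the 48 h array of replicate 3, 9 fell and 0 rose, and without the 72 h array of replicate 1, 3 fell and 0 rose. Without the 48 h array of replicate 1, 3 fell and 3 rose, and the median difference of -0.22 became 0.11. The call of Col14a1 ended without the 48 h array of replicate 3 or either 72 h array (adjusted p = 0.0511 to 0.0987). Of 20 cholangiocyte and progenitor genes 3 fell and 1 rose, with Tnfrsf12a, the TWEAK receptor, at -3.25 ± 0.59. In the lymphocyte list 1 of 26 rose, Ccr7 at 0.45 ± 0.12, which was not called without the 72 h array of replicate 1 or either 48 h array (adjusted p = 0.0675 to 0.171), and 4 rose without the 72 h array of replicate 3. Of 21 fetal liver genes 7 fell and 1 rose, with the Golgi protein gene Golm1 at -1.17 ± 0.20, and 4 fell without the 72 h array of replicate 1. Of 30 immediate early genes 7 fell and 1 rose. Egr1 and Klf6 fell by 2.03 ± 0.42 and 1.74 ± 0.29, and 2 fell without the 72 h array of replicate 1 and 3 without the 48 h array of replicate 3. Without either of these arrays the call of Egr1 ended (adjusted p = 0.0641 and 0.0698). Of 11 blood genes 1 fell, the platelet factor gene Pf4 at -2.18 ± 0.54. Of 10 genes of neighbouring tissues 1 fell, Fabp2, and 1 rose, Ins2 at 0.45 ± 0.11. The calls of Pf4 and Ins2 ended without any one of the 4 arrays (adjusted p = 0.0567 to 0.113 and 0.053 to 0.101).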
